A study of Homo sapiens with 4 samples.

Results

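The IL6 family of cytokines and receptors was examined in SKOV3 cells, a long-established line from a human ovarian carcinoma, grown on tissue culture plates (TCP) or as tumor spheroids on a plate coated with polymer X. The 10 genes were chosen by name: the ligand genes IL6, LIF, IL11 and CLCF1 with EBI3, a subunit that pairs with a cytokine chain, and the receptor genes IL6R, IL6ST, LIFR, OSMR and IL11RA. All 10 were found among the 19475 gene symbols of the RNA-seq table. The libraries comprised 2 of SKOV3 cells on TCP, labelled day 0, and 2 of SKOV3 spheroids on polymer X, labelled day 8, and the labels name no genetic change or drug in either group. The labels give serum replacement as the medium of all 4 libraries, whereas the study's methods describe serum for routine culture and serum replacement for spheroids, which were also dissociated with accutase at intervals. Substrate, culture time and possibly medium thus cannot be told apart. Nothing in the labels says that libraries of a group came from separate cultures, so the p-values below measure only the spread between these libraries, which may be technical.

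Cytokines of this family signal through IL6ST, also called gp130, which most of their receptor complexes share. IL6 and IL11 first bind their own alpha receptors, IL6R and IL11RA, which recruit gp130, while LIF acts through LIFR with gp130 and oncostatin M through OSMR or LIFR with gp130. The assembled receptors activate JAK kinases and STAT3, and SOCS3 limits the signal by acting on the receptor complex. IL6 is also an inflammatory cytokine gene that many carcinoma lines express, and STAT3 activity on polymer X was the subject of the study.

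Levels are given in FPKM, sequenced tags relative to the length of the transcript and the size of the library, so they can be compared between genes. Where a gene had several RefSeq transcripts, the one highest on average over the libraries stands for it. Tests compared polymer X with TCP on log2(FPKM + 1) with limma over the 11964 genes that reached 1 FPKM in 2 or more libraries. A gene was called when its adjusted p was under 0.05 (Benjamini-Hochberg) and its log2 fold change reached 1 in either direction. A fold change on this scale understates that of genes with low FPKM. The libraries had been scaled to between 38403000 and 44904000 tags.

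Among the 10 genes, EBI3 and IL11RA rose on polymer X and IL6 fell. This is 2 genes called higher, beside 10.7% of all genes tested, and 1 called lower, beside 9.45%. The other 7 differed by less than the fold change minimum. In every one of the 10 genes, both polymer X libraries lay on the same side of both TCP libraries, which also held for 90.4% of all genes tested. EBI3 passed the filter on low values through the polymer X libraries only, so it had to differ to be tested. With 2 libraries a group, the smallest two-sided p of an exact permutation test is 0.333. Without the fold change minimum, all 10 had an adjusted p under 0.05, as had 81.0% of all genes tested. Of them 6 were higher, beside 37.4% of all genes, and 4 were lower, beside 43.6%. IL6R, among those higher, did not keep a limma adjusted p under 0.05 in other settings. It was 0.124 with no filter, 0.090 with the transcripts summed and 0.305 under quantile normalization.

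The regions upstream of the transcription start are shown for IL6 and EBI3, the ligand genes that were called, and for IL11, a ligand gene that was not. They are the 250 bases before a RefSeq start site on GRCh38.p14, whereas the expression table uses hg19 coordinates. RefSeq promoters were found for 8 of the 10 genes, all but LIF and CLCF1. Capitals mark matches to the letters searched, written for 1 strand and sought on both: GGNNTTTCC for the kappa B motif of NF-kappaB, TTGCNNAA for C/EBP, TGANTCA for AP-1, TTCNNNGAA for STAT factors and GAAANNGAA for the interferon-stimulated response element.
IL6, chr7:22726950-22727199, plus strand: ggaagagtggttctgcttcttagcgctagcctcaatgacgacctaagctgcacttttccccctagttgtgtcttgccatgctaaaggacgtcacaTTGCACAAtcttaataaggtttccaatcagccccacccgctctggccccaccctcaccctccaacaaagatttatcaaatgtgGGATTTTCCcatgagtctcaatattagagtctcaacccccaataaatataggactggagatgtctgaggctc
EBI3, chr19:4229273-4229522, plus strand: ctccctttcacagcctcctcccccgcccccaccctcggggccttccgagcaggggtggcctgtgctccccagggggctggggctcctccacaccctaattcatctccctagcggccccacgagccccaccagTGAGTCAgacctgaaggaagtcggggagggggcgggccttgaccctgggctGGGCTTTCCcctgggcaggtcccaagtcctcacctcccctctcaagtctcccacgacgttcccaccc
IL11, chr19:55370464-55370713, minus strand: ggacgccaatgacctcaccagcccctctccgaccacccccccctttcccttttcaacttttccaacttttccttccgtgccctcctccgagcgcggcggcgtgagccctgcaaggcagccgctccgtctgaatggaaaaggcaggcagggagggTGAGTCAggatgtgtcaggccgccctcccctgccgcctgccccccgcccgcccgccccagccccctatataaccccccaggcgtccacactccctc

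The IL6 sequence held the kappa B letters from base 72 to base 64 before the start and the C/EBP letters from base 155 to base 148, with no overlap between the matches. The kappa B letters occurred in 5.48% of the 35116 promoters of the table over the same length, and the C/EBP letters in 9.05%. EBI3 also held the kappa B letters, on the same strand, at bases 67 to 59. EBI3 and IL11 each held the AP-1 letters, which were present in 6.57% of promoters, at bases 118 to 112 and 96 to 90 before the start. Neither IL11RA start listed, nor those of IL6R and IL6ST, held any of the 5 motifs in this window. The STAT letters, also present in 6.57% of promoters, were found upstream of LIFR only, before 2 of its 3 listed starts. LIFR, before 1 of these starts, and OSMR also held the C/EBP letters. The remaining LIFR start listed held none of the 5 motifs. By position it lies nearest the start of the transcript that stands for LIFR here. No promoter of the 8 genes held the interferon letters, found in 6.88% of promoters. A match describes the letters and not a bound factor.

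IL6, the ligand that gives the family its name, was the most abundant of the 5 ligand genes on TCP, with 67.3 and 65.3 FPKM in the 2 libraries. On polymer X it stood at 6.77 and 5.90 FPKM. All its TCP values lay far above those on polymer X, and the mean was 10.5-fold lower in spheroids. The log2 fold change was -3.20 (standard error, SE, 0.07, 95% interval -3.36 to -3.04, limma adjusted p = 1.2e-09). The transcript used, NM_001318095, lies on chromosome 7 from 22766761 to 22771621 on the plus strand of hg19, and 2910 to 238 tags stood behind its values. The other listed transcript, NM_000600, gave a log2 fold change of -3.21.

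EBI3 encodes a soluble receptor-like subunit that pairs with the p28 chain (gene IL27) to form IL-27 and with the p35 chain (gene IL12A) to form IL-35. It was listed at 0.138 FPKM in both TCP libraries, which is 6 and 7 tags, and at 5.22 and 6.004 FPKM on polymer X, or 236 and 276 tags. EBI3 was thus barely detected on TCP and clearly detected in both spheroid libraries. The log2 fold change was 2.54 (SE 0.09, limma adjusted p = 1.1e-08), while the ratio of the summed tags per library size was 40.7, with an exact 95% interval of 23.6 to 76.9 that covers counting error only. Its transcript NM_005755 spans bases 4229540 to 4237524 of chromosome 19. The partner chains did not share this level. IL27 was at 0 tags in every library, and IL12A lay at 0.336 and 0.192 FPKM on TCP and at 0.143 and 0.176 FPKM on polymer X, under the filter, with 8 to 18 tags.

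LIF, a cytokine that acts through LIFR and gp130, differed little between the conditions. It was measured at 16.8 and 17.4 FPKM on TCP and at 19.8 and 19.2 FPKM on polymer X (NM_001257135, chromosome 22, 30636436 to 30642840). Its polymer X values were higher by less than the fold change minimum, with a log2 fold change of 0.18 (95% interval 0.05 to 0.31, limma adjusted p = 0.016).

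CLCF1, which acts on the CNTF receptor complex, was 1.70-fold lower on polymer X without being called. Its values were 14.5 and 13.1 FPKM on TCP and 8.39 and 7.87 FPKM on polymer X (NM_013246, chromosome 11, 67131639 to 67141206), a log2 fold change of -0.70 (SE 0.07, limma adjusted p = 1.4e-05). CNTFR, the alpha receptor of that complex, did not exceed 6 tags in a library.

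IL11, a cytokine that signals through IL11RA and gp130, was scarce in every library, at 1.01 and 1.03 FPKM on TCP and at 1.30 and 1.40 FPKM on polymer X (NM_000641, chromosome 19, 55875750 to 55881831). Between 92 and 135 tags per library stood behind these values. The log2 fold change was 0.22 (limma adjusted p = 0.033), and under quantile normalization it was -0.22, so no direction can be given.

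**Figure D1:**
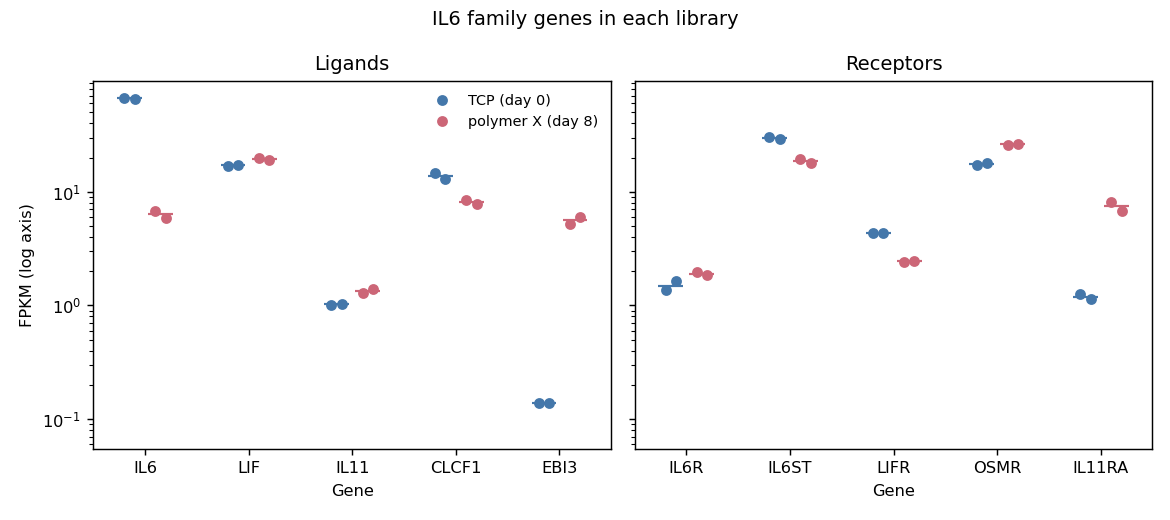
FPKM on a log axis of the 5 ligand genes (left) and the 5 receptor genes (right) in the 2 TCP libraries (blue) and the 2 polymer X libraries (red), with a bar at each group mean. IL6 falls from above 65 to below 7 FPKM, EBI3 climbs from 0.138 to above 5 FPKM, and IL11RA climbs from about 1.2 to about 7.5 FPKM.

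The order of the ligand genes by FPKM changed accordingly. On TCP it ran IL6, LIF, CLCF1, IL11, EBI3, and no neighbours in this order overlapped between libraries. On polymer X it ran LIF, CLCF1, IL6, EBI3, IL11, where the values of IL6 and EBI3 overlapped and the other neighbours did not. IL6 stood at 4.01 and 3.76 times the LIF level on TCP and at 0.342 and 0.308 times that level on polymer X. Of the summed FPKM of the 5 ligand genes, IL6 made up 67.4% in each TCP library and 16.3% and 14.6% in the polymer X libraries. The share of LIF went from 16.8% and 17.9% to 47.7% and 47.5%, although its own level differed little, since the sum itself went from 99.8 and 96.9 FPKM to 41.5 and 40.3 FPKM. EBI3, at 0.138% and 0.142% of the sum on TCP, reached 12.6% and 14.9% on polymer X.

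**Figure D2:**
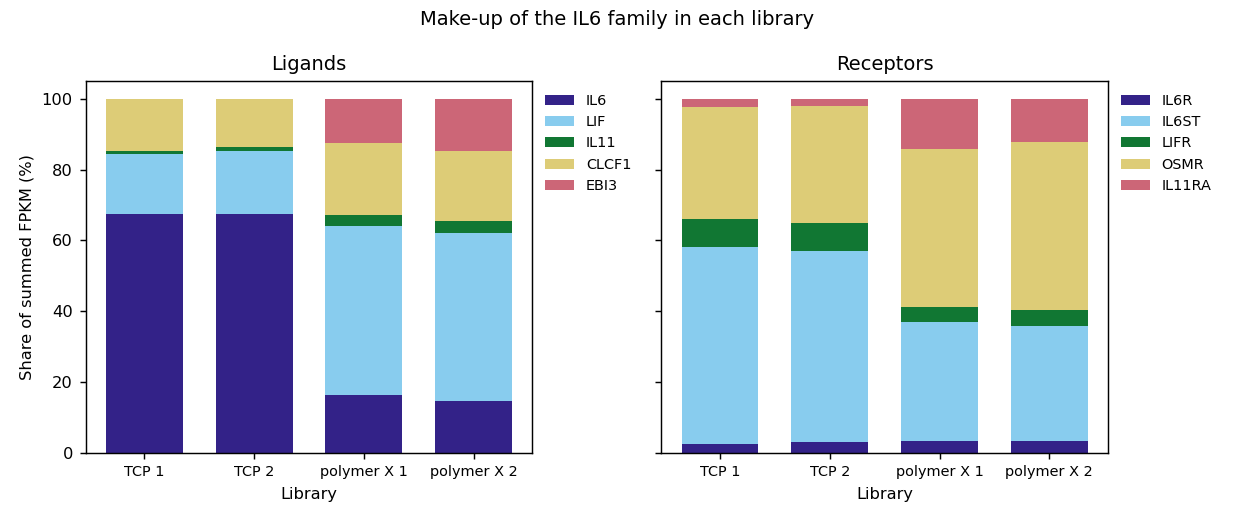
Share in percent of the summed FPKM of the 5 ligand genes (left) and of the 5 receptor genes (right) that each gene made up, with 1 stacked bar per library. IL6 takes 67.4% of the ligand sum on TCP, and LIF takes 47.5% to 47.7% on polymer X. Among the receptors, the largest share passes from IL6ST to OSMR, which is given by its full-length transcript.

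Among the receptors, IL11RA was the gene that was called. This alpha chain binds IL11 and does not signal without gp130. It was measured at 1.25 and 1.14 FPKM on TCP and at 8.20 and 6.71 FPKM on polymer X, and the lower polymer X library was still 5.36 times the higher TCP library. The log2 fold change was 1.94 (SE 0.10, 95% interval 1.73 to 2.16, limma adjusted p = 1.0e-07), and the ratio of the means was 6.25. Its transcript NM_001142784 lies on chromosome 9 from 34652182 to 34661898. The end of its span shares 19 bases with CCL27 on the opposite strand, and the authors counted without regard to strand. CCL27 itself lay between 0.220 and 0.344 FPKM in the 4 libraries.

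IL6R, the alpha receptor of IL6, was low in all libraries, at 1.36 and 1.63 FPKM on TCP and at 1.96 and 1.84 FPKM on polymer X (NM_181359, chromosome 1, 154377669 to 154441926). The gap between the TCP libraries was larger than that from the higher TCP library to the lower polymer X library. The log2 fold change was 0.22 (95% interval 0.02 to 0.42, limma adjusted p = 0.041) and became -0.10 (adjusted p = 0.305) under quantile normalization, so the direction is not settled for IL6R.

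IL6ST, the shared signalling chain gp130, was the most abundant of the receptor genes on TCP, with 30.4 and 29.3 FPKM. It lay at 19.5 and 18.1 FPKM on polymer X (NM_175767, chromosome 5, 55230925 to 55290821). The groups did not overlap, and the mean was 1.59-fold lower in spheroids, with a log2 fold change of -0.64 (95% interval -0.78 to -0.50, limma adjusted p = 8.0e-06). Its 3 listed transcripts, which share most of their sequence, gave log2 fold changes from -0.64 to -0.63.

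LIFR, which forms the LIF receptor with gp130, was also lower without being called. Its level was 4.33 and 4.37 FPKM on TCP and 2.42 and 2.49 FPKM on polymer X (NM_001127671, chromosome 5, 38475065 to 38556748), a log2 fold change of -0.63 (SE 0.07, limma adjusted p = 2.7e-05). The replicates of each group differed by far less than the groups did.

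OSMR, the oncostatin M receptor chain, went the other way, from 17.2 and 17.9 FPKM on TCP to 26.1 and 26.4 FPKM on polymer X (NM_003999, chromosome 5, 38846101 to 38935743). The mean was 1.495-fold higher, with a log2 fold change of 0.55 (95% interval 0.43 to 0.68, limma adjusted p = 1.2e-05), under the minimum for a call. Oncostatin M itself (OSM) did not exceed 4 tags in a library. IL31RA, which pairs with OSMR in the IL-31 receptor, stood at 0.737 and 0.580 FPKM on TCP and at 0.0930 and 0.119 FPKM on polymer X, under the filter, with 76, 70, 10 and 13 tags. With the transcripts of each gene summed, IL31RA passed the filter and was called lower, at a log2 fold change of -1.53 (limma adjusted p = 4.4e-06). Such a sum counts tags shared by transcripts repeatedly. IL31RA may also have passed the filter through the TCP libraries only, in which case it had to differ to be tested.

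**Figure D3:**
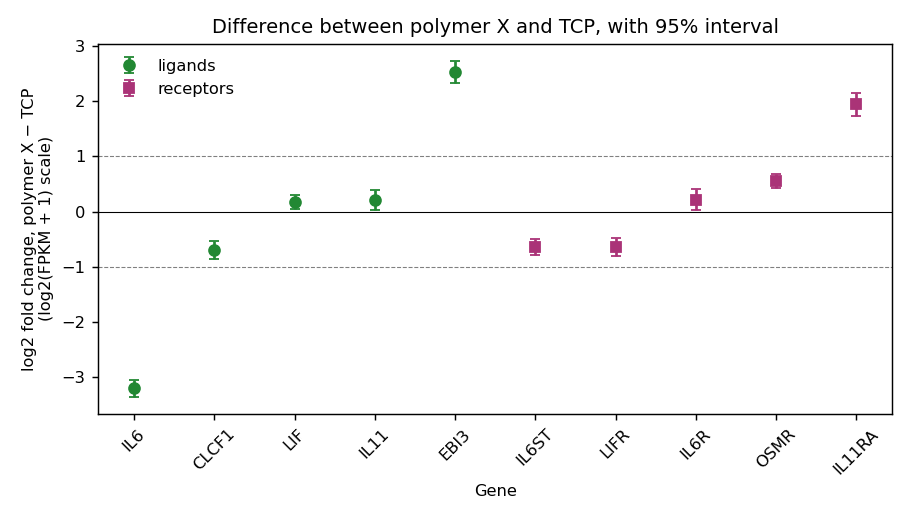
Log2 fold change of polymer X over TCP on the scale of log2(FPKM + 1) for the 5 ligand genes (circles) and the 5 receptor genes (squares), with 95% intervals from limma. Dashed lines mark the minimum of 1 for a call in either direction; IL6 lies below it at -3.20, EBI3 and IL11RA above it at 2.54 and 1.94, and the other 7 between the lines.

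Ligands and receptors were then set side by side. The log2 fold changes of the 5 ligand genes ran from -3.20 to 2.54 with a median of 0.18, and those of the 5 receptor genes from -0.64 to 1.94 with a median of 0.22, beside a median of -0.06 over all genes tested. The size of the change, regardless of sign, had a median of 0.70 for the ligands and 0.63 for the receptors, against 0.51 for all genes tested. The medians of both groups had the opposite sign under quantile normalization, at -0.22 for the ligands and -0.10 for the receptors. The summed FPKM of the receptors hardly moved, from 54.6 and 54.3 on TCP to 58.2 and 55.5 on polymer X.

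The order within the receptors nevertheless differed. On TCP it ran IL6ST, OSMR, LIFR, IL6R, IL11RA and on polymer X OSMR, IL6ST, IL11RA, LIFR, IL6R, with no overlap between neighbours in either order. IL6ST stood at 1.77 and 1.64 times OSMR on TCP and at 0.749 and 0.686 times OSMR on polymer X. This holds for the full-length OSMR transcript used. The shorter NM_001168355, at 13.9 and 15.5 FPKM on polymer X, lay under IL6ST there, at 19.5 and 18.1 FPKM. Another shorter form, NM_001323507, overlapped IL6ST there, at 18.8 and 20.2 FPKM. The OSMR to LIFR ratio, for chains that each pair with gp130, was 3.98 and 4.09 on TCP and 10.8 and 10.6 on polymer X. For each IL11RA unit of FPKM there were 24.3 and 25.8 units of IL6ST on TCP and 2.38 and 2.70 on polymer X. IL11RA accordingly took 14.1% and 12.1% of the receptor sum on polymer X, against 2.29% and 2.09% on TCP.

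The listed transcripts of OSMR and IL6R did not move alike. The shorter OSMR transcript NM_001168355, which ends before the last exons at base 38886841, lay at 14.2 and 14.0 FPKM on TCP and at 13.9 and 15.5 FPKM on polymer X, with the groups overlapping. The full-length NM_003999 was 1.21 and 1.28 times this transcript on TCP and 1.88 and 1.71 times on polymer X. The log2 fold changes of the 6 OSMR transcripts thus ran from 0.05 for the shortest to 0.56 for a full-length one. In IL6R, the transcript NM_001206866, which ends at base 154410561, was at 1.13 and 0.900 FPKM on TCP and at 0.776 and 0.848 FPKM on polymer X, with a log2 fold change of -0.15. The transcript that reaches base 154441926 stood at 1.202 and 1.81 times its level on TCP and at 2.52 and 2.17 times on polymer X.

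The same tilt was seen across other genes. There were 880 tested genes with a pair of transcripts that began within 500 bases of each other, ended at least 5000 bases apart and had an FPKM of at least 0.5 in every library. The log2 fold change of the transcript reaching farther 3′ exceeded that of the one ending earlier by a median of 0.19 (middle 50% of genes, 0.01 to 0.38). The difference was 0.34 for OSMR, where the earlier end was that of NM_001323507 at base 38919659, and 0.37 for IL6R, and 29.7% and 26.4% of the 880 genes had a difference at least as high. Transcripts reaching farther 3′ thus tended to gain on those ending earlier in the polymer X libraries. Coverage along the transcripts was not measured. The part of this tilt in the levels of OSMR, IL6R and the other genes of the family was not tested.

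**Figure D4:**
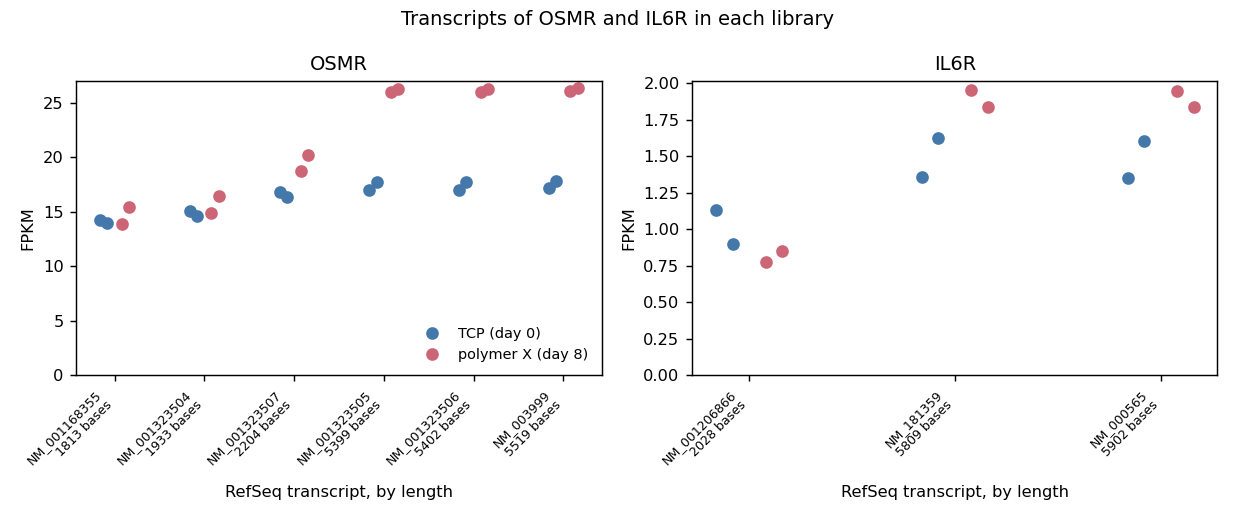
FPKM of each listed RefSeq transcript of OSMR (left, 6 transcripts) and IL6R (right, 3 transcripts), ordered by length, in the TCP (blue) and polymer X (red) libraries. The groups overlap in the shortest OSMR transcripts, while the full-length ones lie near 17 FPKM on TCP and 26 FPKM on polymer X; the short IL6R transcript is the one that is lower on polymer X.

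The pathway around the family was followed in 66 further genes, of which 53 were tested, 4 rose and 9 fell. These calls are 24.5% of the tested genes, beside 20.2% of all genes tested. Of 11 other ligand and receptor genes of the family, CNTF and IL27RA were tested and 0 were called by limma, although both had an adjusted and an unadjusted p under 0.05. CNTF, a ligand of the CNTF receptor complex, had a log2 fold change of -0.77 and passed the minimum under quantile normalization (-1.22) and a pseudocount of 0.1 (-1.18). CTF1, IL27 and IL31 did not exceed 3 tags in a library. IL27RA, which pairs with gp130 in the IL-27 receptor, was at 3.25 and 3.10 FPKM on TCP and at 4.23 and 4.08 FPKM on polymer X, with a log2 fold change of 0.30.

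None of the 4 kinase and STAT genes was called by limma, beside 20.2% of all genes tested. An adjusted p under 0.05 was reached by 3 of them, the same number as at an unadjusted p, and by 81.0% of all genes tested. JAK1, a kinase bound to gp130, came nearest, at 54.4 and 55.8 FPKM on TCP and 28.1 and 26.4 FPKM on polymer X. Its log2 fold change was -0.99 (limma adjusted p = 2.8e-07). JAK1 passed the minimum with the transcripts summed (-1.02), a pseudocount of 0.1 (-1.02), without TCP replicate 1 (-1.01) or without polymer X replicate 1 (-1.04), and stood at -0.72 under quantile normalization. JAK2 stood at 1.53 and 1.48 FPKM on TCP and at 1.03 FPKM in both polymer X libraries, a log2 fold change of -0.30. STAT3 had a log2 fold change of 0.25 and TYK2 of 0.02 (adjusted p = 0.818). Under quantile normalization JAK2 stood at -0.79 and STAT3 at 0.57, still short of a call.

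Of the 9 tested feedback inhibitors, SOCS3 was the 1 called, or 11.1%, beside 20.2% of all genes tested. This inhibitor of gp130 signalling, itself induced by STAT3, rose from 7.62 and 8.02 FPKM to 16.7 and 17.9 FPKM, a log2 fold change of 1.05 (SE 0.06, limma adjusted p = 4.1e-07). SOCS1 and CISH, inhibitors of the same family at lower levels, had log2 fold changes of 0.91 and 0.88, with means 3.45 and 2.98 times those on TCP. SOCS1 was called higher with a pseudocount of 0.1 (1.61) and without polymer X replicate 2 (1.09), and CISH with a pseudocount of 0.1 (1.48), with the transcripts summed (1.13) and without TCP replicate 2 (1.02). Among the adaptors, PTPN11, the phosphatase SHP2 that docks on gp130, fell from 63.1 and 63.2 FPKM to 27.7 and 24.8 FPKM, a log2 fold change of -1.24, or -0.96 and no call under quantile normalization. RHBDF1, an inactive rhomboid that guides the receptor sheddase ADAM17 to the cell surface, rose with a log2 fold change of 1.25, from 6.94 and 7.03 FPKM to 16.8 and 19.3 FPKM. ADAM17 itself was not called, at 0.46.

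Genes that act on IL6 transcription and on its mRNA were examined in the same way. Of 11 transcription factors known to act on the IL6 gene, 4 fell and 0 rose by the limma call, beside 9.45% of all genes tested called lower and 10.7% called higher. At an unadjusted p under 0.05, 6 were lower and 4 higher, and the adjusted p gave the same counts. FOSL1, an AP-1 subunit, fell from 98.3 and 104.9 FPKM to 24.8 and 25.03 FPKM, a log2 fold change of -1.99. JUN and ATF3, which bind AP-1 and related sites, fell with log2 fold changes of -1.09 and -1.29. NFKB1, which encodes the p50 subunit of NF-kappaB, fell from 21.2 and 22.5 FPKM to 10.9 and 9.94 FPKM, a log2 fold change of -1.003, at the edge of the minimum. Of 8 genes acting on IL6 mRNA stability, KHSRP and HNRNPD, both proteins that bind AU-rich elements, fell with log2 fold changes of -1.26 and -1.16. These calls are 25% of the 8, beside 20.2% of all genes tested. Quantile normalization ended the calls of JUN (-0.77), NFKB1 (-0.86), KHSRP (-0.95) and HNRNPD (-0.81), and CEBPB (1.09), JUNB (1.198) and ZFP36L1 (1.08) were then called higher. The transcription factors thus stood at 2 higher and 2 lower under that setting. NFKB1 also lost its call after each library was scaled to 1 median (-0.96), without TCP replicate 2 (-0.96) and without polymer X replicate 2 (-0.94).

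Genes known to respond to STAT3 did not move one way. Of the 15, all tested, SOCS3, TIMP1 and VEGFA rose and FOSL1, MYC and BIRC5 fell. These calls are 40% of the 15, beside 20.2% of all genes tested, of which 10.7% were called higher and 9.45% lower. VEGFA, the angiogenic growth factor that also responds to low oxygen, rose from 66.3 and 65.4 FPKM to 875 and 991 FPKM, a log2 fold change of 3.80. TIMP1, a metalloproteinase inhibitor, had a log2 fold change of 1.22, and its span lies inside that of SYN1 on the opposite strand. MYC, a growth-promoting transcription factor, fell from 19.7 and 20.4 FPKM to 1.99 and 2.16 FPKM, a log2 fold change of -2.78. BIRC5, the mitotic and survival protein survivin, had a log2 fold change of -2.60. Under quantile normalization JUNB (1.198) and BCL3 (1.11) were also called higher. The median of the 15 genes was -0.34, beside -0.06 over all genes tested.

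**Figure D5:**
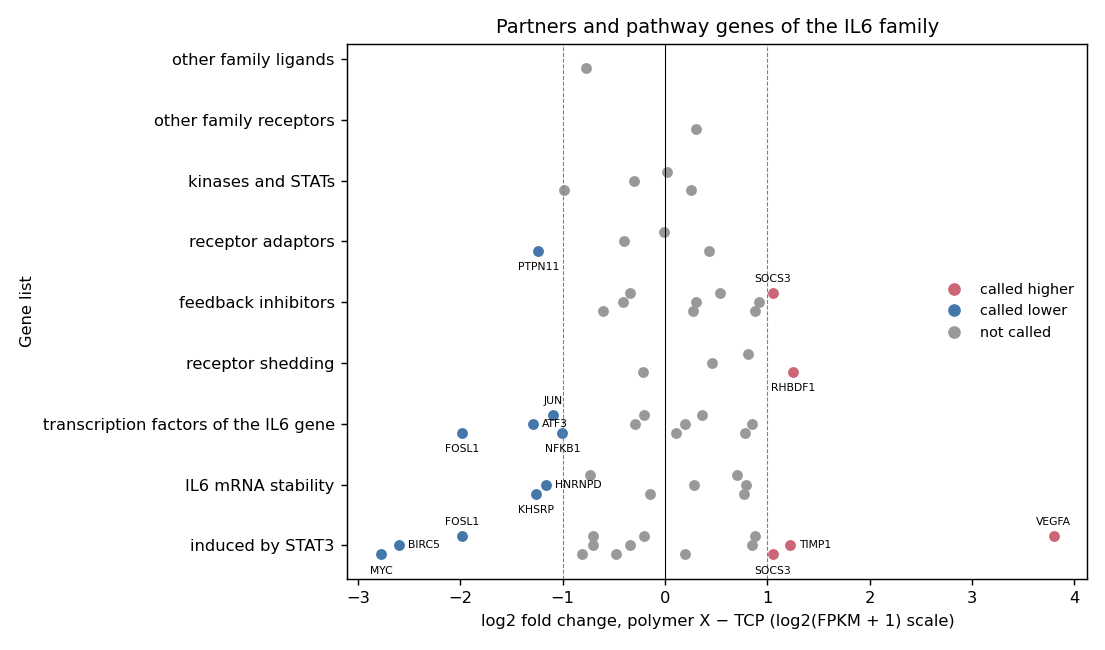
Log2 fold change of polymer X over TCP on the scale of log2(FPKM + 1) for the tested genes of the 9 pathway lists, with genes called higher in red, called lower in blue and not called in grey; a gene in more than 1 list appears in each. No kinase or STAT gene is called, with JAK1 next to the line at -0.99, the called transcription factors of the IL6 gene all lie to the left (2 called higher and 2 lower under quantile normalization), and VEGFA lies farthest to the right at 3.80.

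The line and other cell types were checked with marker genes. KRT8, KRT18, ERBB2 and PAX8 were each above 48 FPKM in every library but did not move alike. ERBB2 and PAX8 were called higher on polymer X (log2 fold changes 2.13 and 1.06). KRT8, KRT18 and KRT7 were lower without being called (-0.87, -0.44 and -0.76), and KRT19 stayed under 1 FPKM. EPCAM lay at 0.168 and 0.104 FPKM on TCP and was called higher on polymer X at 1.39 and 1.32 FPKM. It passed the filter through the polymer X libraries only, so it had to differ to be tested. WT1 and MUC16 stayed under 0.5 FPKM throughout. Summed over 6 leukocyte markers, FPKM went from 17.2 and 17.5 on TCP to 43.3 and 46.0 on polymer X, most of it from CD68, a lysosomal protein that is not confined to leukocytes, and CD3E was at 0 tags in every library. PTPRC, the pan-leukocyte marker, had 1 and 0 tags on TCP and 92 and 106 on polymer X. The 6 fibroblast markers summed to 8.52 and 8.92 FPKM on TCP and to 40.8 and 34.4 FPKM on polymer X, where COL3A1, DCN and LUM rose, each passing the filter through the polymer X libraries only. COL1A1, the most abundant of them on TCP, went the other way without being called, from 8.21 and 8.48 FPKM to 3.81 and 3.77 FPKM. PDGFRA, under the filter, had 26 and 25 tags on TCP and 67 and 78 on polymer X. PDGFRB did not exceed 26 tags. The 3 endothelial markers, all under the filter, summed to 0.009 and 0.019 FPKM on TCP and to 0.617 and 0.489 FPKM on polymer X, where PECAM1 had 102 and 83 tags against 0 in both TCP libraries. The part of other cell types in the levels of the IL6 family was not tested, and in these bulk libraries fewer cells of a type and less RNA per cell cannot be told apart.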

How the data were processed

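Per the file headers and the submitters' processing notes, the authors deposited FPKM values for 50078 RefSeq transcripts of hg19, made with the HOMER command analyzeRepeats. The study's methods do not describe the RNA-seq processing. It counted exon tags without regard to strand, divided them by transcript length and library size and gave 3 decimals. The submitters' processing notes also name STAR 2.4.0 and DESeq. The role of each, read trimming and the HOMER version are not given in the sources used here. The header names further libraries on other surfaces, not analysed here. Genes that overlap on opposite strands, and transcripts of 1 gene, share tags.

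The number of tags behind each library was recovered from low FPKM values times length, all of which (100%) came within 0.1 of a whole tag. Tags may be mates of a pair, so intervals from tags cover counting error only and may be too narrow.

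For each symbol the transcript with the highest mean was used. log2(FPKM + 1) was fitted over all 4 libraries with limma 3.58.1 (R 4.3.3; variance trend on, replicate number not in the model), with the filter and thresholds given above. The procedure was tested on simulated data, where 182 of 200 changed genes were recovered and 0 unchanged genes were called. The simulation changed few of its 11718 genes and assumed a spread common to all. Its outcome thus need not carry over to the libraries here. The 10 genes, the lists of pathway genes and the markers were chosen with earlier results of these data known, from general knowledge. All 10 genes are named, as are the pathway genes called and JAK1, JAK2, TYK2, STAT3 and SOCS3. Further genes of these lists are not reported here. Other genes named were chosen after their values were seen, and so was the comparison of transcripts by their 3′ ends. Alternatives were the pseudocount (0.1), the filter (none, or a mean of at least 5), quantile and median scaling, the replicate block, the sum of transcripts or the longest one, no variance trend, each library left out, and the fold change minimum. Plots were drawn with matplotlib 3.10.9.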

Additional observations from a re-analysis of the deposited data

How the results depend on the processing

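Of 431 recomputed values, 403 were classed as the same. Fold changes had to keep their direction and side of the threshold, and medians to move by less than the spread. Counts could move a little, as from 4 to 6 pathway genes higher with a pseudocount of 0.1. The replicate block, no variance trend and no filter leave the fold changes themselves unchanged. The limma adjusted p did move. That of IL6 was 9.97e-28 with the block and 0.00196 with no filter, against 1.2e-09 in the main fit. For EBI3 the same settings gave 2.99e-21 and 0.00224, and for IL11RA 5.96e-19 and 0.00465. IL6, EBI3 and IL11RA kept their calls wherever they were tested, except that IL11RA, at 1.94, misses a minimum of 2. EBI3, IL11RA, IL11, IL6R and LIFR drop out when a mean of 5 FPKM is required. Fewer genes then remain and 0 of the family were called higher. The ligand median was then -0.70 and the receptor median -0.043. Under that filter, 702 genes in all were called higher, and 1285 in the main fit. Quantile normalization gave medians of -0.22 for the ligands and -0.10 for the receptors, and turned IL11 (-0.22) and IL6R (-0.10). It also gave 8 pathway genes higher and 5 lower, against 4 and 9. The cause was not tested. Without a fold change minimum, 6 of the family were higher and 4 lower (81.0% of all genes pass), as were 23 and 27 pathway genes. At a minimum of 2, 1 of the family was higher, and 1 pathway gene was higher and 2 lower. With each library left out in turn, where a lone library is assumed to vary like the other group, all counts of family calls were the same.

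With the replicate number as a block, 2 of the family were higher and 1 lower, as in the fit without it, and in the same way 4 and 9 pathway genes. Across 11964 genes, the correlation of deviations between libraries of the same number was 0.0927, so no pairing was assumed. Depth limits EBI3 on TCP and IL27, OSM and CNTFR.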
